A study of Mus with 9 samples.

Results

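The tumour necrosis factor (TNF) superfamily was followed across 9 mouse heart libraries as the genes named Tnf, Tnfsf (ligands), Tnfrsf (receptors) or Tnfaip. Tnfaip stands for proteins first described as induced by TNF, whereas Tnfaip8l1, Tnfaip8l2 and Tnfaip8l3 are named for their likeness to Tnfaip8. The name rule found 42 genes among the 55421 of the count table: 14 under ligand names, 20 receptors and 8 under Tnfaip names. All 42 passed the filter on low counts. Superfamily members that carry other names, such as Fas or Cd40, do not match the rule and were counted apart.

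TNF superfamily ligands are mostly trimeric proteins made on the cell surface, many of which are also cut off and released. Their receptors either recruit TRAF adaptors and switch on NF-kB, recruit death domain proteins and caspase 8, or act as decoys that hold a ligand without signalling. In the injured heart TNF itself is made largely by macrophages and other leukocytes, whereas cardiomyocytes, fibroblasts and endothelium carry its receptors.

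The tissue is labelled as atria, and as left atrial in the series text, from wild-type male C57BL/6J mice of 8 to 10 weeks. The series title sets the study in atrial fibrillation after infarction. Sham 1 to 3 had the operation without ligation and vehicle, MI 2, MI 3 and MI 4 had permanent ligation of the left anterior descending coronary artery and vehicle, and MI_ART 1 to 3 had the ligation and artesunate (ART), an artemisinin drug given into the peritoneum. The labels disagree on its schedule: 25 mg/kg each day for 7 days from surgery in the treatment protocol, against 10 mg/kg every other day from 2 days before surgery to day 7 in the series text. One label field speaks of rats. The day of harvest is not stated, nor whether every library came from its own animal, so the p-values cover sample-to-sample spread, which may be technical.

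Chamber markers differed between groups as well as within them. Myl2 (ventricular myosin light chain) over Myl7 (the atrial form) was 3.64, 17.7 and 6.57 in Sham, 1.87, 2.36 and 0.460 in MI, and 5.45, 1.22 and 784 in MI_ART, with no overlap between Sham and MI. Counts of Myl2 thus exceeded those of Myl7 in every library except MI 4, although the tissue is labelled as atria. In MI_ART 3 Myl7 was at 1.96 CPM (the count scaled to the library's effective size) against 168 to 989 elsewhere, so this defining atrial transcript was nearly absent there. The summed level of 6 atrial genes was 1822 to 7476 CPM in Sham, 13504 to 25208 in MI and 1323 to 12540 in MI_ART, with none called. Nppa made up most of that sum in every library, at 4872, 1177 and 3972 CPM in Sham and 11540, 11451 and 20599 in MI. Between Sham and MI, Myl7, Sln, Bmp10 and Dkk3 overlapped, while Nppa and Myl4 did not. The summed level of 5 ventricular genes was 7579 to 8445, 1657 to 3033 and 2923 to 4476 CPM, and 3 of the 5 fell in MI. The part of this chamber make-up in the members' changes was not tested. MI 4 held the lowest Myl2 to Myl7 ratio and the lowest summed level of 6 working cardiomyocyte genes, 18894 CPM against 22040 to 53245. The members' counts of calls are therefore also given with MI 4 and MI_ART 3 left out. Total counts per library were 68046341 to 83685313. Beyond these marker ratios and sums, levels of different genes are not compared with each other, because no transcript lengths were used.

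After infarction most of the receptors and several ligands of the superfamily were higher than in Sham. Of 42 members 23 rose and 3 fell (54.8% and 7.14%), where 18.8% of all 19326 tested genes rose and 14.3% fell (33.1% called either way at an adjusted p under 0.05). The median log2 fold change was 1.53 over the members and 0.04 over all tested genes. By kind, 13 of 20 receptors, 5 of 14 genes under ligand names and 5 of 8 under Tnfaip names rose, and 1 of each kind fell. The ligand names include Tnfsf13os, an antisense gene, and Tnfsfm13, which rose and is annotated across Tnfsf12 and Tnfsf13. Tnfrsf9, Tnfsf11 and Tnfsf14, counted as risen, passed the filter on low counts only through the infarcted libraries. Tnf and Tnfsf9 also needed infarcted libraries to pass, because not every Sham library reached the filter's cutoff. The p-values of all these members against Sham are therefore no independent support for a rise. The libraries of MI and Sham did not overlap for 26 members on the higher side and 4 on the lower side, against 25.7% and 23.2% of tested genes. Without MI 4 and MI_ART 3, 21 members rose and 3 fell, with a median of 1.44.

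**Figure D1:**
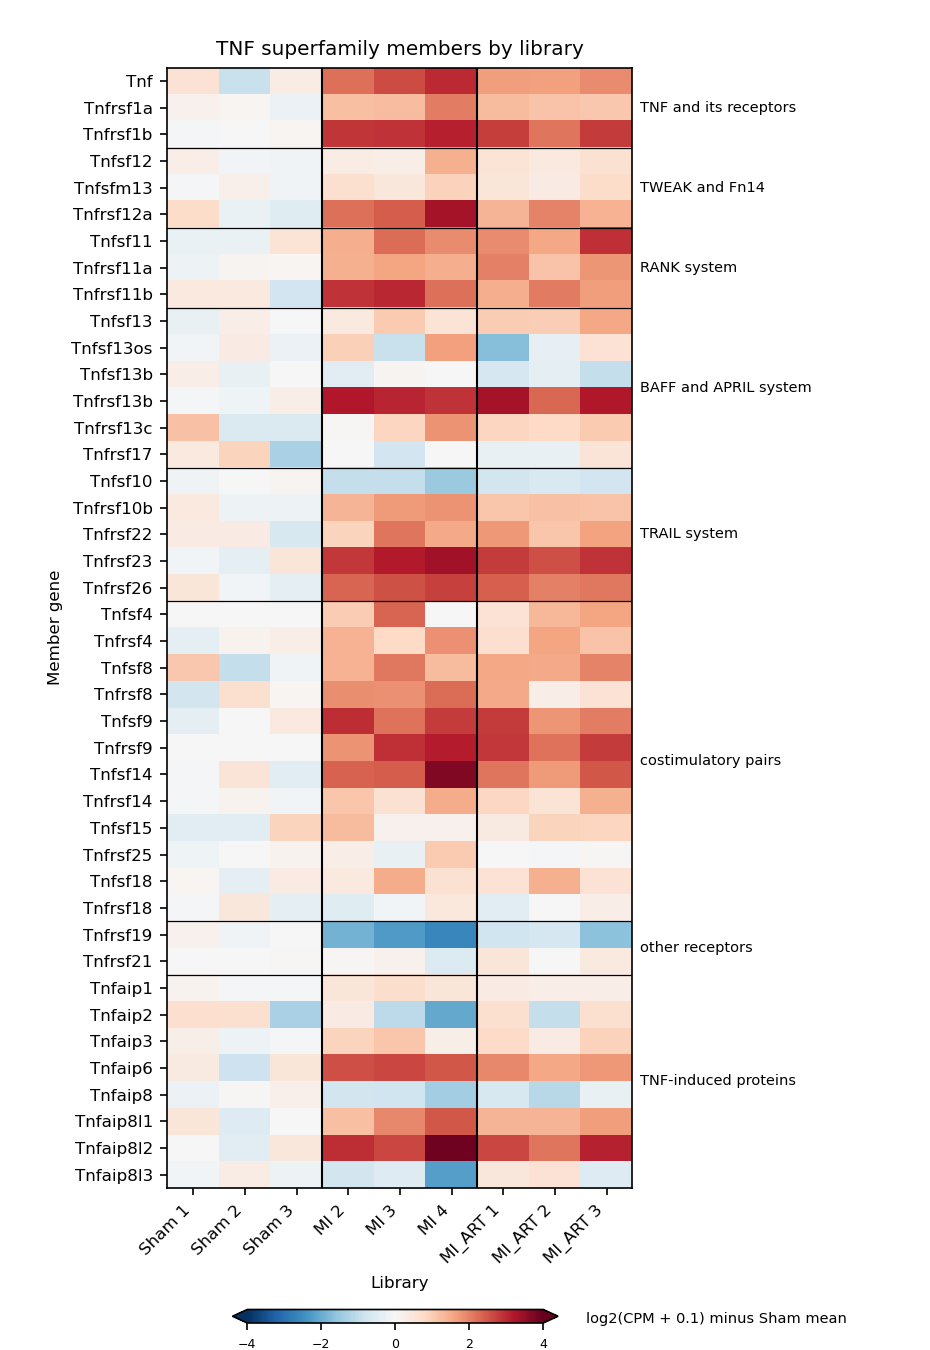
Colour gives log2(CPM + 0.1) minus the mean of the 3 Sham libraries, for each of the 42 members (rows, grouped by system) in each of the 9 libraries (columns). Tnfrsf1b, Tnfrsf13b, Tnfrsf23 and Tnfaip8l2 are red in all MI and MI_ART libraries, Tnfsf10 and Tnfrsf19 are blue, and Tnfaip2 differs within each group.

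Most markers of macrophages, monocytes and neutrophils rose with these changes, and lists for other cell types were read beside them. All 10 macrophage and monocyte genes rose, and their summed level was 345 to 524 CPM in Sham, 2810 to 3315 in MI and 1909 to 3595 in MI_ART. Of 8 neutrophil genes 6 rose (1.32 to 1.55 CPM in Sham, 47.1 to 112 in MI, 17.7 to 86.5 in MI_ART), and S100a8, Cxcr2, Retnlg, Ly6g, Mmp8 and Camp were each at 0 in at least 1 library. Of 6 working cardiomyocyte genes 4 fell, with sums of 47058 to 53245, 18894 to 27598 and 22040 to 30526 CPM. Of 6 B and plasma cell genes 2 rose, and of 10 T and NK cell genes 1 rose. Of 6 fibroblast genes 4 rose and 1 fell, and their sum was 1282 to 1497, 4033 to 4815 and 3458 to 3991 CPM. The sum of 6 blood endothelial genes overlapped between the groups, at 671 to 714, 591 to 849 and 602 to 636 CPM, with 1 gene lower. The part these cell types play in the members' changes was not tested, and in bulk tissue more cells of a type and more RNA per cell cannot be told apart.

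TNF and both of its receptors rose after infarction. Tnf (chromosome 17, 35199367 to 35202007), the founding ligand, was at 0.664, 0.178 and 0.536 CPM in Sham 1 to 3, 2.28, 3.03 and 3.94 in MI 2 to 4, and 1.52, 1.49 and 1.79 in MI_ART 1 to 3. No library of one group entered the range of another, and the MI_ART libraries lay between Sham and MI. The rise in MI was 6.69-fold (log2 2.74, SE 0.47, adjusted p = 0.00187, edgeR). Tnf had 36, 9 and 28 counts in Sham 1 to 3 and passed the filter on low counts only with the infarcted libraries. This p-value is therefore no independent support for a rise.

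Tnfrsf1b (chromosome 4, 145212368 to 145246870), the TNF receptor typical of leukocytes and endothelium, was at 7.13, 7.54 and 7.99 CPM in Sham, 55.7, 56.4 and 65.3 in MI, and 51.6, 33.6 and 53.0 in MI_ART. It rose 7.82-fold in MI (log2 2.97, SE 0.21, adjusted p = 4.90e-05), and its lowest infarcted library, MI_ART 2, was still above every Sham library. Tnfrsf1a (chromosome 6, 125349723 to 125362483), the widely expressed TNF receptor with a death domain, was at 37.4, 35.3 and 28.4 CPM in Sham, 76.7, 79.4 and 140 in MI, and 80.9, 74.5 and 70.8 in MI_ART. MI 4 stood above the other 5 infarcted libraries, which were within 70.8 to 80.9 CPM. The rise in MI was 2.92-fold (log2 1.55, SE 0.24, adjusted p = 0.00120), and log2 1.21 without MI 4 and MI_ART 3 (adjusted p = 0.000961).

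**Figure D2:**
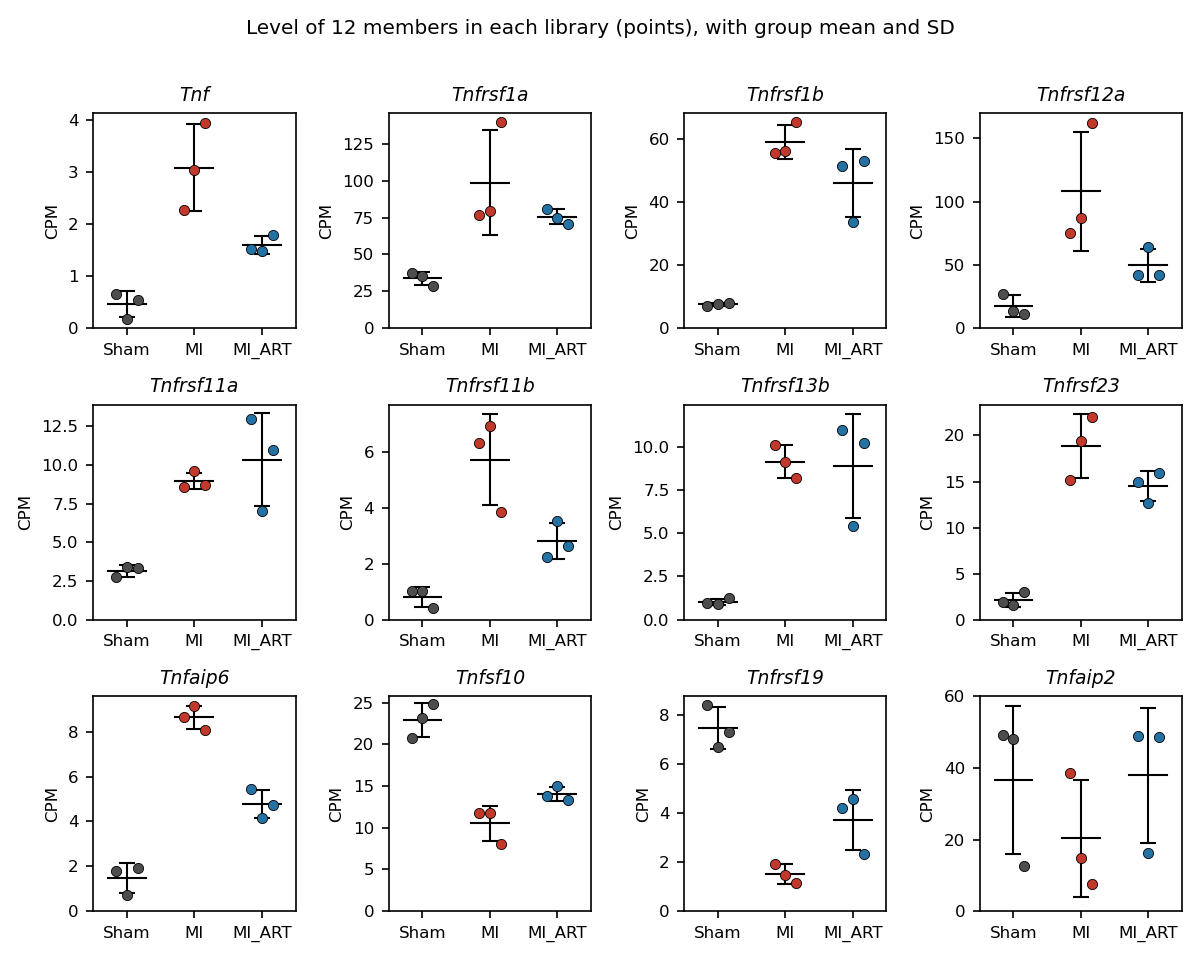
Points give CPM in each library for 12 members, with the group mean (bar) and SD of 3 libraries (whiskers), on linear axes from 0. For Tnf, Tnfrsf12a, Tnfrsf11b and Tnfaip6 the MI_ART libraries lie between Sham and MI, Tnfsf10 and Tnfrsf19 show the mirror image, and Tnfaip2 has high and low libraries in all 3 groups.

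Fn14, the receptor for the ligand TWEAK, rose, whereas the call of its ligand depended on the libraries used. Tnfrsf12a (Fn14; chromosome 17, 23675445 to 23677449), an injury-induced receptor of muscle and fibroblasts, was at 27.2, 13.6 and 11.5 CPM in Sham, 75.5, 86.8 and 162 in MI, and 41.8, 64.5 and 42.4 in MI_ART. The 3 groups did not overlap. It rose 6.19-fold in MI (log2 2.63, SE 0.40, adjusted p = 0.00104), or log2 2.22 without MI 4 and MI_ART 3 (adjusted p = 0.00340).

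Tnfsf12 (TWEAK; chromosome 11, 69686240 to 69696098) was at 11.5, 8.83 and 8.71 CPM in Sham, 11.7, 11.5 and 26.1 in MI, and 14.2, 12.7 and 14.6 in MI_ART. MI 2 and MI 3 were level with Sham 1 and MI 4 stood above every other library. The log2 fold change of 0.76 (SE 0.31, adjusted p = 0.0868) was 0.26 without MI 4 and MI_ART 3. It passed with total counts and without MI 2 or MI 3 (adjusted p down to 0.00293). Tnfsfm13, annotated across Tnfsf12 and its neighbour Tnfsf13, was at 8.28 ± 1.04 CPM in Sham and 13.3 ± 2.23 in MI (SD, n = 3), a log2 of 0.68 (adjusted p = 0.0267). That call was lost without Sham 1 or Sham 3, with only MI and Sham fitted, and with the replicate block, with adjusted p up to 0.107. These genes overlap on chromosome 11, so their reads cannot be assigned with certainty.

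In the RANK system, best known from bone turnover, both receptor genes rose, and the ligand, nearly without counts in Sham, was also called higher. Tnfrsf11b (osteoprotegerin, the secreted decoy for RANKL; chromosome 15, 54250619 to 54278484) was at 1.03, 1.03 and 0.402 CPM in Sham, 6.32, 6.93 and 3.86 in MI, and 2.25, 3.53 and 2.64 in MI_ART. No MI library overlapped with Sham or MI_ART, and the rise was 6.94-fold (log2 2.79, SE 0.42, adjusted p = 0.000881). Tnfrsf11a (RANK, the signalling receptor on osteoclast and macrophage precursors; chromosome 1, 105780673 to 105849444) was at 2.73, 3.38 and 3.33 CPM in Sham, 8.59, 9.59 and 8.73 in MI, and 13.0, 7.06 and 11.0 in MI_ART. MI and MI_ART overlapped for RANK and both lay above Sham, with a 2.85-fold rise in MI (log2 1.51, SE 0.25, adjusted p = 0.00144). The ligand Tnfsf11 (RANKL), singled out after its values were seen, had 0, 0 and 4 counts in Sham and 20 to 66 in the infarcted libraries (log2 3.69, SE 1.13, adjusted p = 0.0314). Its call was lost in 6 of the 17 alternatives that kept it, among them without Sham 1, Sham 2, MI 3 or MI 4 (adjusted p up to 0.0884). With so few counts in Sham, RANKL passed the filter on low counts only through the infarcted libraries, so its p-value is no independent support for a rise.

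In the BAFF and APRIL system, which serves B and plasma cells, 1 of 6 genes rose. This share, 16.7%, was near the 18.8% of all tested genes. Tnfrsf13b (TACI, a receptor for both ligands; chromosome 11, 61126283 to 61153170) was at 0.959, 0.889 and 1.23 CPM in Sham, 10.1, 9.15 and 8.19 in MI, and 11.0, 5.43 and 10.2 in MI_ART, 8.92-fold higher in MI (log2 3.16, SE 0.31, adjusted p = 0.000122). The summed level of 6 B and plasma cell genes was 2.78 to 3.91 CPM in Sham, 5.06 to 22.5 in MI and 5.10 to 8.18 in MI_ART, highest in MI 4, and its part in the TACI values was not tested. The other B cell receptors of the system, Tnfrsf13c and Tnfrsf17, stayed under 0.5 CPM in every library and were not called. Tnfsf13 (APRIL), which overlaps Tnfsfm13, was at 0.908 ± 0.184 CPM in Sham, 1.51 ± 0.387 in MI and 2.20 ± 0.530 in MI_ART, with an adjusted p of 0.128 in MI against Sham and 0.0280 in MI_ART against Sham. The latter call was lost in 5 of 19 alternatives, among them without Sham 1, Sham 3, MI_ART 1 or MI_ART 3 (adjusted p up to 0.115). Tnfsf13os, an antisense gene at the APRIL locus, was not called and, with strand handling unknown, cannot be told apart from its partners. Tnfsf13b (BAFF) was at 2.71 ± 0.546 CPM in Sham and 2.50 ± 0.517 in MI (adjusted p = 0.798).

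The TRAIL system moved in opposite directions: the ligand fell and all 4 receptor genes counted with it rose. Tnfsf10 (TRAIL; chromosome 3, 27317077 to 27339665), which triggers apoptosis through death receptors, was at 20.7, 23.1 and 24.8 CPM in Sham, 11.7, 11.8 and 8.08 in MI, and 13.8, 15.0 and 13.3 in MI_ART. The 3 groups were separate, with MI_ART in between. TRAIL fell by 1.12 on the log2 scale (SE 0.19, adjusted p = 0.00167). With libraries scaled by total counts, where the median of all tested genes was itself 0.88, the value was -0.28 (adjusted p = 0.237).

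Tnfrsf10b (the death-signalling TRAIL receptor; chromosome 14, 69767472 to 69784411) was at 2.89, 1.88 and 1.90 CPM in Sham, 5.76, 7.26 and 7.90 in MI, and 4.87, 5.00 and 4.97 in MI_ART. It rose 3.14-fold in MI (adjusted p = 0.000893), and again the 3 groups did not overlap. Tnfrsf22, Tnfrsf23 and Tnfrsf26 lie side by side on chromosome 7 between 143607685 and 143686436. The first pair encode decoy TRAIL receptors of mice, and Tnfrsf26 a related receptor.

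Tnfrsf23 was at 1.92, 1.54 and 2.95 CPM in Sham, 15.2, 19.4 and 22.0 in MI, and 15.0, 12.7 and 15.9 in MI_ART, 8.83-fold higher in MI (log2 3.14, SE 0.28, adjusted p = 9.70e-05). Tnfrsf26 rose 6.60-fold from 0.474 ± 0.186 to 3.14 ± 0.456 CPM (adjusted p = 0.000440), and Tnfrsf22 3.06-fold from 1.20 ± 0.444 to 3.69 ± 1.60 CPM (adjusted p = 0.0144). The Tnfrsf22 call was lost without MI 3 and with the replicate block (adjusted p up to 0.0549). They are related neighbouring genes, and how reads were split among them was not tested.

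Of 12 genes of costimulatory pairs, which carry signals between antigen-presenting cells and lymphocytes, 5 rose and none fell, all from low levels. The share that rose was 41.7%, against 18.8% of all tested genes. Tnfsf9 (4-1BB ligand; chromosome 17, 57105287 to 57107758) was at 0.184, 0.276 and 0.383 CPM in Sham, 2.78, 1.59 and 2.46 in MI, and 2.47, 1.16 and 1.44 in MI_ART, 8.05-fold higher in MI (adjusted p = 0.00101). Its receptor Tnfrsf9 (4-1BB; chromosome 4, 150920155 to 150946104) had no counts in Sham and was at 0.251, 0.654 and 0.776 CPM in MI and 0.617, 0.350 and 0.592 in MI_ART. Against a floor of 3 counts in each Sham library it was at least 9.78-fold higher in MI (adjusted p = 0.00137) and at least 9.07-fold higher in MI_ART (adjusted p = 0.00258). With no counts in Sham, 4-1BB passed the filter on low counts only through the infarcted libraries, so these p-values are no independent support for a rise. The same holds for 4-1BB ligand, which had 10, 14 and 20 counts in Sham 1 to 3 and passed only with the infarcted libraries.

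Tnfsf14 (LIGHT, a ligand of activated lymphocytes and myeloid cells; chromosome 17, 57189474 to 57194181) was at 0.147, 0.276 and 0.0957 CPM in Sham, 1.25, 1.31 and 3.30 in MI, and 1.06, 0.750 and 1.36 in MI_ART. It rose 11.2-fold in MI (log2 3.49, SE 0.59, adjusted p = 0.00171), or log2 2.88 without MI 4 and MI_ART 3. With 8, 14 and 5 counts in Sham 1 to 3, LIGHT passed the filter on low counts only through the infarcted libraries. The p-value of LIGHT is therefore no independent support for a rise. The LIGHT receptor Tnfrsf14 (HVEM) was at 0.689 ± 0.0725 CPM in Sham and 1.60 ± 0.504 in MI (adjusted p = 0.0367). Tnfrsf4 (OX40), also under 2 CPM throughout, had an adjusted p of 0.0320. The calls of HVEM and OX40 were lost in 10 and 9 of 19 alternatives, among them without any of the Sham libraries, MI 2 or MI 4 (adjusted p up to 0.173 and 0.141). Tnfsf4 (OX40 ligand) had no counts in Sham or MI 4 and was not called (adjusted p = 0.0642). Summed levels of 10 T and NK cell genes were 2.27 to 2.45 CPM in Sham, 3.58 to 6.49 in MI and 3.24 to 5.72 in MI_ART, with 1 gene higher in MI, and Cd3d, Cd3g, Ncr1 and Klrb1c were each at 0 in at least 1 library.

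Of the 2 remaining receptors, which have no ligand in this set, 1 fell. Tnfrsf19 (TROY; chromosome 14, 60963834 to 61046855), known from stem and progenitor cells, was at 8.39, 6.68 and 7.28 CPM in Sham, 1.91, 1.48 and 1.13 in MI, and 4.21, 4.58 and 2.33 in MI_ART. It fell by 2.30 on the log2 scale in MI (SE 0.32, adjusted p = 0.000605), and the 3 groups did not overlap. This decline passed in all 19 alternatives, total counts among them. Tnfrsf21 (death receptor 6) was at 17.0 ± 0.584 CPM in Sham and 16.1 ± 3.98 in MI, with a log2 of -0.08 (adjusted p = 0.814) that turned to 0.77 with total counts (adjusted p = 0.0160).

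Of 8 genes under Tnfaip names 5 rose and 1 fell, with the Tnfaip8 relatives Tnfaip8l1 and Tnfaip8l2 among those that rose. These shares were 62.5% and 12.5%, against 18.8% and 14.3% of all tested genes. Tnfaip6 (TSG-6, a secreted hyaluronan-binding protein that restrains inflammation; chromosome 2, 52038113 to 52056681) was at 1.77, 0.711 and 1.93 CPM in Sham, 8.68, 9.15 and 8.10 in MI, and 5.44, 4.16 and 4.72 in MI_ART. The 3 groups did not overlap, and the rise in MI was 5.86-fold (log2 2.55, SE 0.35, adjusted p = 0.000565). Tnfaip8l2 (TIPE2, a brake on immune cell activation; chromosome 3, 95139521 to 95142416) was at 1.97, 1.40 and 2.70 CPM in Sham, 15.8, 13.0 and 30.5 in MI, and 13.0, 8.88 and 17.1 in MI_ART. Its rise of 9.76-fold (adjusted p = 0.000367) stands beside MI 4, its highest library, without which and without MI_ART 3 the log2 fold change was 2.83 in place of 3.29.

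Tnfaip3 (A20, the ubiquitin-editing enzyme that ends NF-kB signalling; chromosome 10, 19000910 to 19015410) was at 5.86, 4.25 and 4.77 CPM in Sham, 9.12, 10.8 and 5.84 in MI, and 8.38, 6.18 and 9.42 in MI_ART. MI 4 lay within the Sham range. The log2 fold change of 0.79 (SE 0.27) passed narrowly (adjusted p = 0.0496) and did not pass in 9 of 19 alternatives, among them without any of the Sham libraries, MI 2, MI 3, MI_ART 1 or MI_ART 3 (adjusted p up to 0.157). Without MI 4 and MI_ART 3 it was 1.01 (adjusted p = 0.0120). Of the remaining TIPE genes, Tnfaip8l1 rose 3.88-fold from 2.37 ± 0.844 to 9.19 ± 4.02 CPM (adjusted p = 0.00321).

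Tnfaip8 (TIPE, a lipid-binding regulator of cell survival; chromosome 18, 49979427 to 50093229) was at 69.8, 83.7 and 94.0 CPM in Sham, 48.9, 46.9 and 31.4 in MI, and 52.5, 37.5 and 67.3 in MI_ART. It fell by 0.96 on the log2 scale (SE 0.25, adjusted p = 0.0157), a call lost without Sham 3 and with total counts (log2 -0.11, adjusted p = 0.728). Tnfaip1, a substrate adaptor of a CUL3 ubiquitin ligase, rose 1.47-fold from 53.3 ± 4.68 to 78.5 ± 7.17 CPM (adjusted p = 0.0143). Leaving out Sham 2 or Sham 3 ended this call (adjusted p up to 0.0595). Tnfaip2 (M-Sec, a factor in membrane protrusions; chromosome 12, 111442450 to 111455018) was at 49.1, 48.2 and 12.7 CPM in Sham, 38.7, 14.9 and 7.44 in MI, and 49.0, 16.1 and 48.8 in MI_ART. Its spread within groups exceeded the difference between them (adjusted p = 0.368).

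With artesunate after infarction no member passed the test against vehicle in edgeR, where 2 of all tested genes did (0.0103%). At an unadjusted p under 0.05 there were 4 members (9.52%) against 6.96% of tested genes. DESeq2 called 1 member, Tnfrsf19. The median log2 difference over the members was -0.25, and 0.00 over all tested genes. Libraries of MI_ART and MI did not overlap for 8 members on the lower side and 2 on the higher side, against 6.52% and 7.38% of tested genes (the members are 19.0% and 4.76%). The lower ones were Tnf, Tnfrsf1b, Tnfrsf8, Tnfrsf10b, Tnfrsf11b, Tnfrsf12a, Tnfaip1 and Tnfaip6, and the higher ones Tnfsf10 and Tnfrsf19. With MI 4 and MI_ART 3 left out the counts were 12 and 4, against 17.9% and 18.7% of tested genes.

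**Figure D3:**
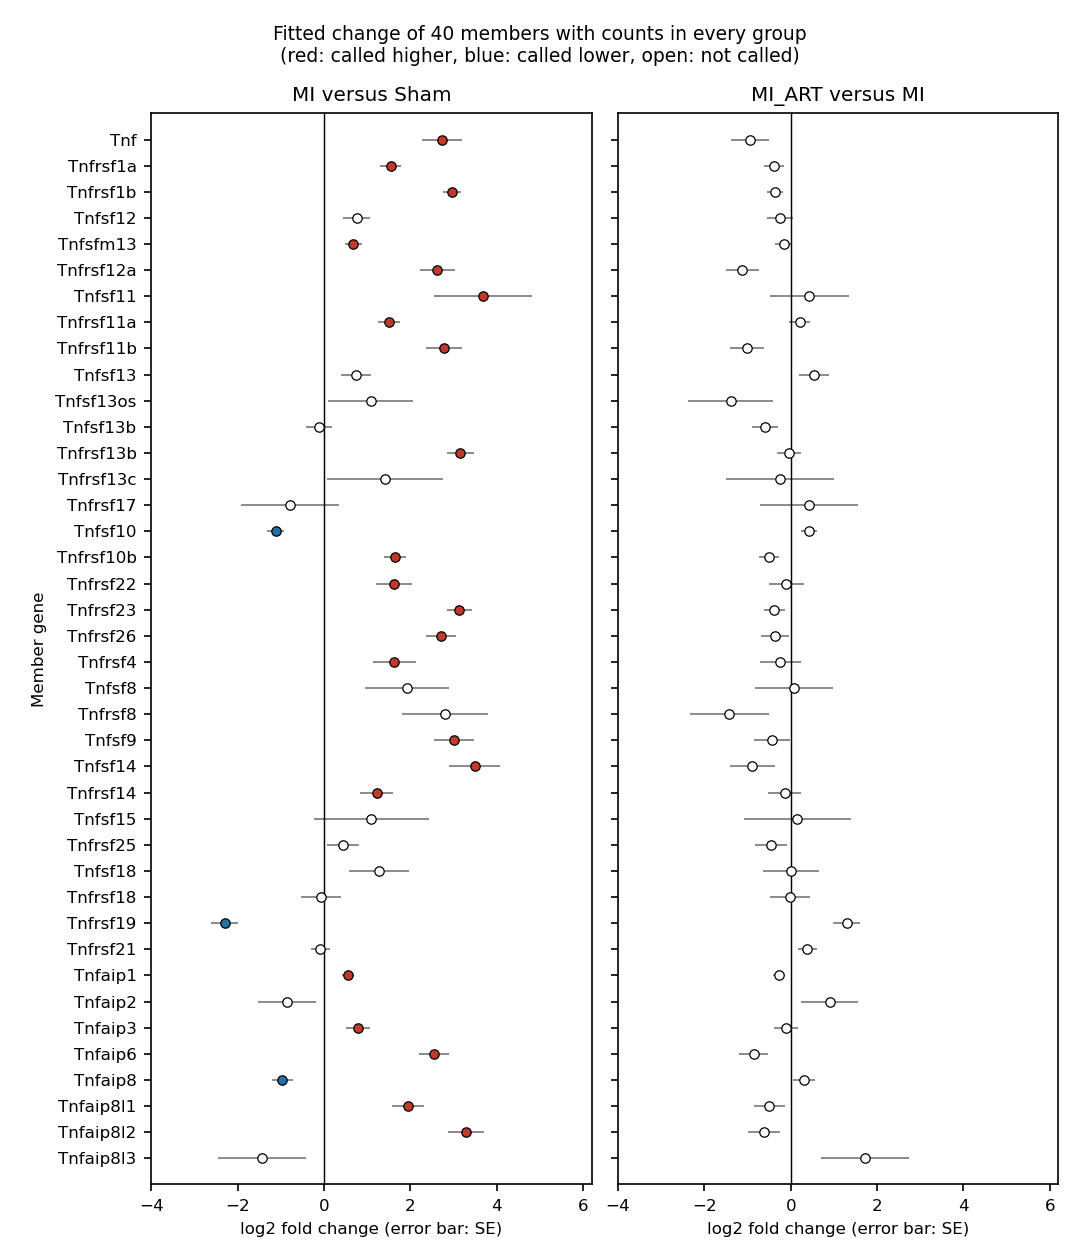
Points give the fitted log2 fold change and bars its SE, for MI versus Sham (left) and MI_ART versus MI (right), filled where the adjusted p is under 0.05. Tnfsf4 and Tnfrsf9, with no counts in Sham, are not drawn, and no member in the right panel is filled. The panels share the MI libraries.

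For the 4 members with an unadjusted p under 0.05 the MI_ART libraries lay between Sham and MI without overlap. These members were picked on their difference between MI_ART and MI in the same libraries, so this order is no separate support for it. Tnfrsf19 (TROY) was 2.46-fold higher in MI_ART than in MI (log2 1.30, 95% interval 0.60 to 1.99, unadjusted p = 0.00197, adjusted p = 0.631), and DESeq2 gave an adjusted p of 0.0268. Over the alternatives its adjusted p ran from 0.0268 to 0.917. Tnfrsf12a (Fn14) had a log2 difference of -1.12 (interval -1.98 to -0.27, adjusted p = 0.687), which was -0.71 without MI 4 and -0.61 without MI 4 and MI_ART 3.

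Tnfrsf11b (osteoprotegerin) had -1.02 (interval -1.89 to -0.16, adjusted p = 0.709) and Tnfaip6 (TSG-6) -0.86 (interval -1.59 to -0.12, adjusted p = 0.709). Without MI 4 and MI_ART 3 these were -1.20 and -0.89 (adjusted p = 0.898 and 0.947). Tnf had -0.95 (interval -1.92 to 0.03, adjusted p = 0.718), Tnfrsf1a -0.39 (interval -0.92 to 0.15) and Tnfrsf1b -0.36 (interval -0.79 to 0.07). The intervals of these 3 genes hold 0 as well as sizeable declines.

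Over all 42 members the log2 difference ran from -1.42 for Tnfrsf8 (CD30; interval -3.45 to 0.61) to 1.73 for Tnfaip8l3 (interval -0.55 to 4.01), both low in counts. Tnfrsf13b (TACI) had -0.04 (interval -0.66 to 0.58) and Tnfrsf11a (RANK) 0.21 (interval -0.32 to 0.74). MI_ART 2 had the lowest of the 3 MI_ART values for 25 of 42 members, against 34.8% of all tested genes. It also had the lowest macrophage sum of that group, 1909 CPM, and the lowest neutrophil sum, 17.7 CPM. The part of these cells in the MI_ART values was not tested.

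Against Sham, several receptors and ligands were higher in the artesunate libraries too. Of 42 members 19 rose and 2 fell in MI_ART (45.2% and 4.76%), where 12.9% and 7.41% of tested genes did (20.3% called either way), with a median log2 fold change of 1.27. Libraries did not overlap for 28 members on the higher side and 4 on the lower side, against 25.4% and 22.8% of tested genes. Among the members that rose were Tnf (3.46-fold, adjusted p = 0.0219), Tnfrsf1b (6.10-fold, adjusted p = 0.000117), Tnfrsf13b (8.67-fold, adjusted p = 0.000220) and Tnfrsf23 (6.80-fold, adjusted p = 0.000222). Tnfrsf12a was 2.84-fold higher (adjusted p = 0.0226). Leaving out Sham 3, MI_ART 1 or MI_ART 3 ended the call of Tnf (adjusted p up to 0.0659), and leaving out Sham 2, Sham 3 or MI_ART 2 that of Tnfrsf12a (adjusted p up to 0.0899). The 2 that fell were Tnfsf10 (log2 -0.71, adjusted p = 0.0254; 0.04 with total counts) and Tnfrsf19 (log2 -1.01, adjusted p = 0.0435). These calls were lost in 8 and 9 of 19 alternatives, among them without any of the Sham or MI_ART libraries (adjusted p up to 0.886 and 0.506). Without MI 4 and MI_ART 3, 16 rose and 3 fell. This comparison shares Sham with MI versus Sham and MI_ART with MI_ART versus MI, so the 3 sets of values are not independent.

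Genes that act around these members were read from 7 lists of 90 genes, of which 86 were tested. After infarction 46 rose and 3 fell (53.5% and 3.49%), against 18.8% and 14.3% of all tested genes. The 46 include genes with few counts in Sham 1 to 3, such as Il6 (4, 0 and 0), Cxcl2 (0, 0 and 7) and Ltb (20, 8 and 9). Such genes passed the filter on low counts only through the infarcted libraries, so their p-values are no independent support for a rise. Of 18 TNF-responsive NF-kB targets 15 rose and 1 fell, with a median log2 of 3.12. The monocyte chemokines Ccl2 and Ccl7 rose from 1.69 ± 0.515 to 40.1 ± 14.9 CPM and from 1.75 ± 0.718 to 37.1 ± 11.9 CPM, and Cxcl10 from 1.35 ± 0.202 to 11.1 ± 3.48 CPM (adjusted p = 0.000100, 0.000144 and 0.000173). Sod2, the mitochondrial superoxide dismutase, was the target that fell.

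**Figure D4:**
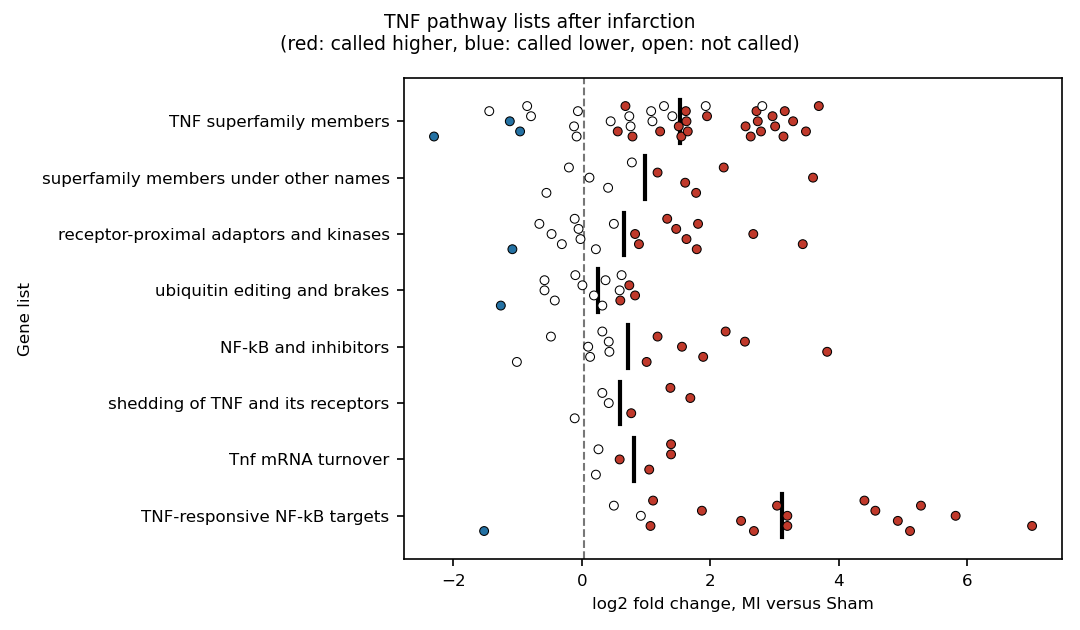
Each point is the log2 fold change of 1 gene in MI versus Sham, by list, filled where called, with the list's median as a black bar and the median of all tested genes as a dashed line at 0.04. The median is 3.12 for the NF-kB targets and 0.26 for the ubiquitin editing genes. Tnfsf4 and Tnfrsf9, with no counts in Sham, are not drawn but are counted in the members' median of 1.53.

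Of 18 receptor-proximal adaptors and kinases 9 rose and 1, Map3k5, fell (median log2 0.66). The 3 with the smallest p were Casp8, Ripk3 and Mlkl. Ripk3, the kinase of necroptosis, rose 10.9-fold from 1.90 ± 0.195 to 20.6 ± 6.78 CPM (adjusted p = 9.40e-05). Its substrate Mlkl rose 3.50-fold (adjusted p = 0.000489), and Casp8, the initiator caspase of death receptors, 3.46-fold (adjusted p = 8.67e-05). Of 14 NF-kB and inhibitor genes 7 rose (median 0.72). Among them were Nfkbid (14.2-fold, adjusted p = 0.000144), Nfkbiz (3.70-fold) and Bcl3 (5.83-fold), which encode nuclear relatives of the NF-kB inhibitors. Nfkbid had 10, 10 and 18 counts in Sham 1 to 3 and passed the filter on low counts only with the infarcted libraries. The p-value of Nfkbid is therefore no independent support for a rise. Of 14 ubiquitin editing genes 3 rose and 1 fell, with a median of 0.26. The share that rose, 21.4%, was near the 18.8% of all tested genes. Otulin rose 1.78-fold and Tnip2 1.52-fold, and Optn fell by 1.26 on the log2 scale (adjusted p = 0.0176, 0.0152 and 0.00392).

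Of 6 genes for the shedding of TNF and its receptors 3 rose (50.0%, against 18.8% of all tested genes) and none fell. They were Frmd8 (3.22-fold), Rhbdf2 (2.60-fold) and Rhbdf1 (1.71-fold), which carry or stabilise the protease ADAM17 (adjusted p = 0.000729, 0.00274 and 0.0324). Of 6 genes for Tnf mRNA turnover 4 rose, among them Zfp36 (tristetraprolin, 2.63-fold), Zfp36l2 (2.07-fold) and Zc3h12a (2.61-fold), which speed the decay of inflammatory mRNAs (adjusted p = 0.000918, 0.00104 and 0.00366). Of 14 superfamily members under other names 10 were tested and 5 rose, with Cd40 at 3.05-fold, Ltbr at 2.26-fold and Relt at 3.43-fold (adjusted p = 0.000922, 0.00651 and 0.00589). No gene of the 7 lists was called between MI_ART and MI, in edgeR or in DESeq2, and 6 of 86 (6.98%) had an unadjusted p under 0.05 in edgeR, against 6.96% of all tested genes. In MI_ART versus Sham 37 rose and 2 fell (43.0% and 2.33%), against 12.9% and 7.41% of all tested genes.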

How the data were processed

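The deposited values are raw read counts per Ensembl gene in 9 libraries, prepared with a SMARTer mRNA kit per the labels' protocols. The submitters' processing notes name HISAT, featureCounts 1.5.0-p3, DESeq 1.8.3 and GRCm38. Strand handling and multi-mapping: not given in the sources used here. Hence the 15 members that overlap another annotated gene are uncertain. They are Tnfsf12, Tnfsfm13, Tnfsf13, Tnfsf13os, Tnfrsf12a, Tnfrsf13b, Tnfrsf23, Tnfrsf4, Tnfsf9, Tnfsf15, Tnfrsf18, Tnfrsf19, Tnfaip8, Tnfaip8l1 and Tnfaip8l2. Coordinates and overlaps come from a RefSeq gene table of the same build (GRCm38.p6), which matched all 42 symbols. No sequences were used.

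Counts were fitted in R 4.3.3 with edgeR 4.0.16 (filterByExpr, TMM scaling, 1 mean per group over all 9 libraries, quasi-likelihood F tests, Benjamini-Hochberg adjustment over 19326 genes). Every adjusted p without another tool's name is from this fit. A gene was called under 0.05. SE is the log2 fold change over the root of F, folds are fitted, and CPM uses TMM-scaled library sizes. Alternatives were DESeq2 1.42.0, other scaling, other low-count filters, the replicate block, only the groups compared, libraries left out and counts divided by 4. The fit was tested on simulated data. A floor of 3 counts corresponded to 0.0322 to 0.0592 CPM, for counting error only. Low counts pile up at multiples of 4, so counts may not be independent molecules.

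Values per library are given for Tnf, Tnfrsf1a and Tnfrsf1b, for called members with a mean of at least 1 CPM in a group and for others of at least 10 CPM, some in short as mean ± SD. From each pathway list the 3 genes with the smallest p in MI versus Sham are named. The members and lists were chosen with earlier results of these data known.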

Additional observations from a re-analysis of the deposited data

How the results depend on the processing

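Of the 26 members called in MI versus Sham, 17 were called in every alternative that tested them, and of 21 in MI_ART versus Sham, 13. Of all genes in MI versus Sham 6399 were called (56.7% higher), and 10172 with total counts (93.7% higher, members 31 higher and 1 lower); leaving out 1 library gave 4806 to 6701, with 20 to 26 members and 42 to 54 pathway genes. In MI_ART versus MI the 2 calls became 1 with upper-quartile factors, total counts, no low-count filter, the replicate block, or without MI 4 and MI_ART 3, and 0 with only these groups fitted, against 85 in DESeq2 (1 member); leaving out 1 library gave 0 to 3, and 0 members. In MI_ART versus Sham the 3921 calls became 8156 with total counts (98.5% higher against 63.5%, 67 pathway genes in place of 39), 5941 with only these groups fitted and 5926 with the replicate block. Leaving out 1 library there gave 2051 (without MI_ART 1) to 6330 (without MI 4), 2420 without Sham 3, 2456 without MI_ART 3, 14 to 27 members and 25 to 56 pathway genes.

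Among the 27 members named by the rule, none changed direction where called, save Tnfsf10 in MI_ART versus Sham with total counts (0.04). Their uncalled log2 values that changed sign were Tnfrsf21 in MI versus Sham (0.77 with total counts, 0.15 with the replicate block, 0.11 without MI 4 and MI_ART 3, -0.22 to 0.11 without 1 library), Tnfaip8 (0.10 with total counts) and Tnfaip2 (-0.17 without MI 4 and MI_ART 3, -0.36 to 0.45 without 1 library, lowest without Sham 3) in MI_ART versus Sham. In MI_ART versus MI they were Tnfsf12 (0.18 with the replicate block, 0.21 without MI 4 and MI_ART 3), Tnfsfm13 and Tnfrsf14 (0.01 and 0.15 with the replicate block) and Tnfaip8 (-0.09 without MI 4 and MI_ART 3). Leaving out 1 library there gave -0.45 to 0.25 for Tnfsf12, -0.44 to 0.11 for Tnfrsf14, -0.22 to 0.22 for Tnfrsf13b, -0.37 to 0.28 for Tnfrsf22 and -0.32 to 0.10 for Tnfaip3. The cause was not tested. Library numbers pair nothing in the labels, and deviations of same-numbered libraries correlated at -0.0354 to 0.0932; the replicate block called 22 members in MI versus Sham. Counts divided by 4, an alternative chosen after seeing the data, called 26 members in MI versus Sham, with Tnfrsf8 in and Tnfsf11 no longer tested, and 20 in MI_ART versus Sham.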

Other observations

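Tnfaip2 had high and low libraries in each group, and the gene whose level was most like it over the 9 libraries was Tecpr2, also on chromosome 12. Among 12459 genes that reached 5 CPM in a library, Tecpr2 (110889243 to 110972394, 470 kb away) ranked first, with a Pearson correlation of 0.95 over 9 libraries, whose values share library and depth scaling. Tecpr2 was at 11.3, 10.7 and 7.56 CPM in Sham 1 to 3, 10.2, 8.29 and 6.70 in MI 2 to 4, and 11.3, 9.70 and 10.6 in MI_ART 1 to 3. In both genes Sham 3, MI 3, MI 4 and MI_ART 2 were the 4 lowest libraries. Ranks 2 to 5 went to genes on other chromosomes, Scaf4, Pcdhga2, Brd1 and Cnksr3, with correlations of 0.93, 0.88, 0.88 and 0.87. The genes were ranked after the split in Tnfaip2 had been seen.

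Traf3, a TNF receptor adaptor 175 kb from Tnfaip2, also varied within groups. It was at 2.30, 4.40 and 18.4 CPM in Sham 1 to 3, 12.8, 19.3 and 3.33 in MI 2 to 4, and 9.78, 3.91 and 3.97 in MI_ART 1 to 3. Its correlation with Tnfaip2 was -0.20 over the 9 libraries. MI 4 and MI_ART 2 were among the 4 lowest libraries of both genes, whereas Sham 1 was the lowest for Traf3 and the highest for Tnfaip2. Eif5, 83.1 kb away, had 0.70 and ranked 176. Closer to Tnfaip2, Exoc3l4 at 10.8 kb had -0.71 and Cdc42bpb at 63.1 kb had -0.14. Whether the shared locus plays a part was not tested.

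Of values from 1 to 40 counts, 31.2% to 34.3% per library were multiples of 4, where an even spread gives 25%. In Sham 1, 866 genes had 4 counts, against 372 with 3 and 540 with 5. The 4 counts of Tnfsf11 in Sham 3 are such a value.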
